A study of Mus musculus with 8 samples.

Results

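The Fc gamma receptors described here are 6 genes fixed by name: the IgG receptor chains Fcgr1, Fcgr2b, Fcgr3 and Fcgr4, the signalling chain Fcer1g and the neonatal Fc receptor chain Fcgrt. All 6 were found among the 55376 genes of the deposited count table, and all 6 passed the low-count filter that kept 14382 genes for testing. RNA-seq read counts were compared between mouse bone marrow dendritic cells (BMDCs, antigen-presenting cells grown from bone marrow) kept overnight with heat-inactivated Prevotella melaninogenica (PM) and the same kind of cells kept with heat-inactivated P. heparinolytica (PH). There were 3 PM and 3 PH samples, which carry the sample ids 1, 3 and 4 in both treatments, and each is named here by its id as replicate 1, 3 or 4. No strain, age or genotype of the mice is given in the sources used here, and no untreated cells were compared, and every difference is one of PM against PH. Since the labels leave out what an id stands for (animal or culture), the p-values reflect only how much these samples vary, part of which may be technical.

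Fc gamma receptors bind the constant part of IgG antibodies and let myeloid cells take up antibody-coated particles. Fcgr1, Fcgr3 and Fcgr4 are activating receptors. They signal through Fcer1g, a short chain whose ITAM (an activation motif with paired tyrosines) recruits the kinase Syk. Fcgr2b carries an ITIM, an inhibitory motif that recruits the phosphatase SHIP-1, and the balance between activating and inhibitory receptors sets how strongly dendritic cells respond to immune complexes. Fcgrt pairs with B2m inside the cell, where it protects IgG from breakdown and steers IgG-bound antigen to presentation.

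Totals were between 21192990 and 38231719 counts with PM and between 11624367 and 40233148 with PH. The lowest total was that of PH replicate 3, which also had 4025 CPM (read counts scaled to library size with TMM) of the predicted gene Gm42418, against 877 to 1495 CPM in the other samples. The columns of PM replicate 1 and PH replicate 3 match 2 labelled sequencing runs each by name, and the sources used here do not give whether they hold 1 run or both. Some dendritic cell markers were present in every sample, with Itgax at 139 to 178 CPM with PM and 133 to 165 with PH. Zbtb46 was at 59.4 to 81.3 CPM with PM and 66.7 to 84.3 with PH. Cd209a was at 0 counts throughout, and Xcr1 at most 0.432 CPM with PM and 0.345 with PH. The macrophage marker Adgre1 was at 420 to 608 CPM with PM and 416 to 634 with PH. The macrophage markers C1qa, C1qb and C1qc were each at most 0.764 CPM with PM and 0.492 with PH. These cultures thus expressed some markers of both cell types and lacked or nearly lacked others.

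Per length, the signalling chain was the most abundant of the 6 and the high-affinity receptor Fcgr1 the least. Levels are given as RPKM, which is CPM per kilobase of annotated exon. Fcer1g averaged 431 ± 81.2 RPKM with PM and 463 ± 60.0 with PH (SD, n = 3 each, as for the levels that follow). Fcgr3 averaged 89.3 ± 12.4 RPKM with PM and 75.2 ± 14.8 with PH. Fcgr2b averaged 27.5 ± 5.24 RPKM with PM and 40.6 ± 8.40 with PH. These 3 chains were thus the bulk of the Fc gamma receptor RNA in the cultures. Fcgrt averaged 6.81 ± 0.466 RPKM with PM and 5.96 ± 0.651 with PH. Fcgr4 averaged 1.39 ± 0.445 RPKM with PM and 2.11 ± 0.484 with PH, and Fcgr1 0.291 ± 0.0849 RPKM with PM and 0.479 ± 0.181 with PH. The order of the 6 genes was the same in both treatments, and the ranges of neighbours in that order did not overlap in any case.

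**Figure D1:**
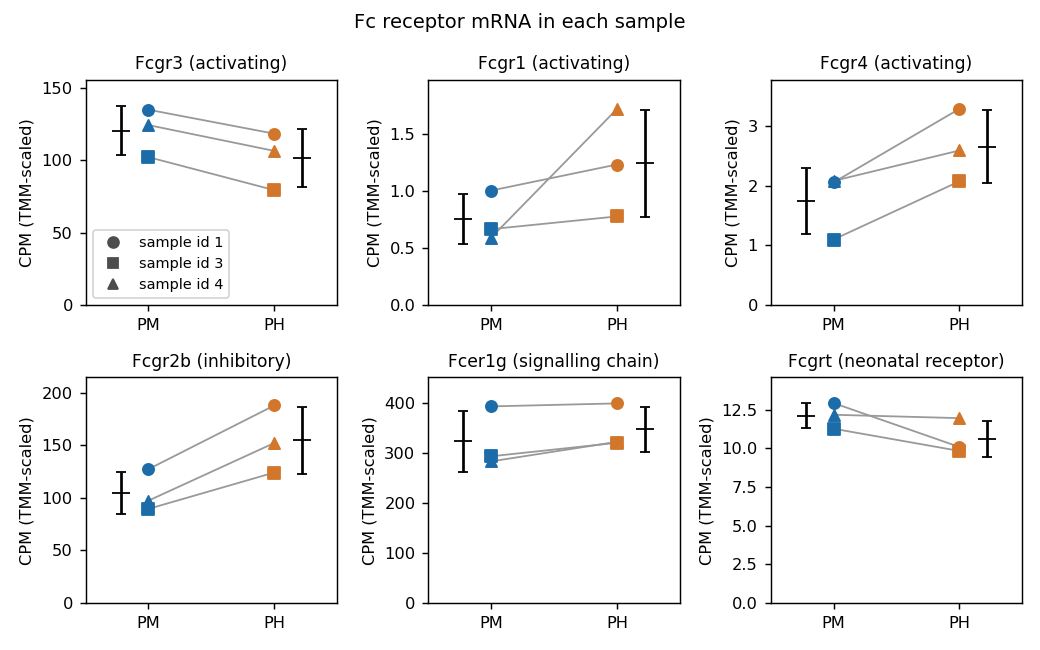
CPM (TMM-scaled) of the 6 genes in each sample, with PM left and PH right in every panel and linear axes that start at 0. Coloured points are samples, the marker shape gives the sample id, grey lines join samples of the same id, and black bars are means ± SD (n = 3). The lines of Fcgr2b all lie lower at PM and those of Fcgr3 all lie higher at PM, although the ranges of the treatments overlap for each gene.

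Between the bacteria, the inhibitory receptor was lower and the main activating receptor higher with PM in every pair of the same id. Fcgr2b was at 127, 89.5 and 97.4 CPM in PM replicates 1, 3 and 4, against 188, 124 and 152 CPM in PH replicates 1, 3 and 4. PM replicate 1 lay just above PH replicate 3, so the treatments overlapped, while each PM sample was below the PH sample of its id. Its log2 fold change was -0.57 ± 0.17 (SE), with adjusted p = 0.151 by edgeR's quasi-likelihood test with Benjamini-Hochberg adjustment over all genes. In the fit with a replicate block for the ids it was -0.56 ± 0.05, with adjusted p = 1.4e-10 by edgeR, and lower in 3 of 3 pairs. Fcgr3 was at 135, 102 and 124 CPM in PM replicates 1, 3 and 4, against 118, 79.3 and 106 CPM in PH replicates 1, 3 and 4. Here too the treatments overlapped and each PM sample was on the same side of its PH partner, this time above it. For Fcgr3 the fold change on the log2 scale was 0.24 ± 0.15 (SE), with adjusted p = 0.550 by edgeR, or 0.25 ± 0.05 with the block (adjusted p = 3.8e-04, higher in 3 of 3 pairs). The call of Fcgr2b with the block was kept without any 1 id, at adjusted p up to 3.4e-10, and that of Fcgr3 up to 0.0443. With PM replicate 1 and PH replicate 3, the columns that match 2 runs, left out, which breaks the pairs, Fcgr3 did not pass (0.0053 on the log2 scale, adjusted p = 0.987 by edgeR) and Fcgr2b passed (-0.87, adjusted p = 0.00333), an alternative chosen after the data were seen.

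The calls thus depended on whether the ids were used. Without the block 0 of 6 members passed, where 2.34% of all tested genes did. An unadjusted p under 0.05 by edgeR was found for 3 of 6, where 13.1% of all tested genes had one, at 0.00766 for Fcgr2b, 0.0273 for Fcgr1 and 0.04997 for Fcgr4, the last just under that threshold. With the block 4 of 6 passed, where 15.3% of all tested genes did. Of these, 3 were lower with PM (Fcgr1, Fcgr2b and Fcgr4), against 8.27% of all genes, and 1 was higher (Fcgr3), against 7.00% of all genes. All 6 members differed in the same direction in 3 of 3 pairs, as 45.8% of tested genes did. The treatments did not overlap for 0 of 6 members, where this held for 19.4% of tested genes. DESeq2, also without the block, called 1 of 6, Fcgr2b, at adjusted p = 0.0236, where it called 4.15% of the 13992 genes to which it gave an adjusted p.

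**Figure D2:**
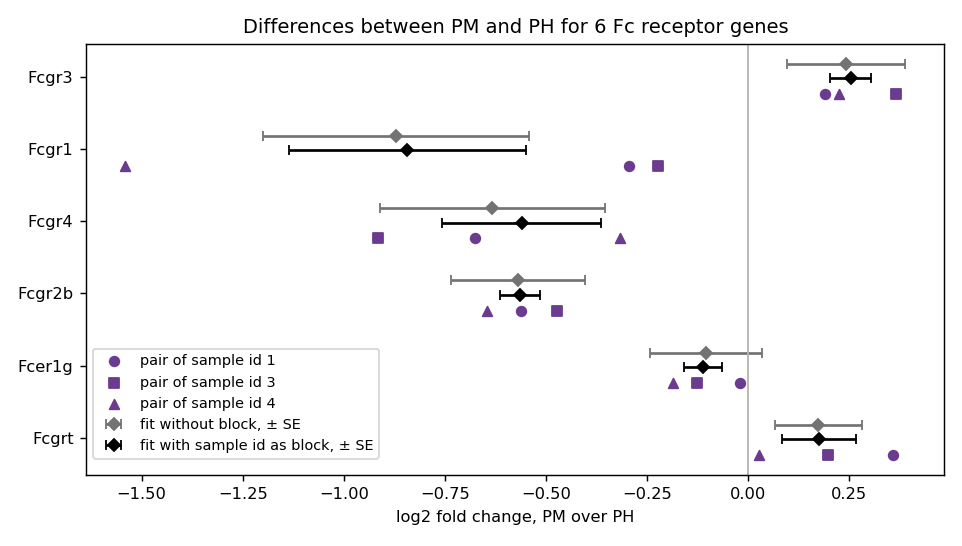
Log2 fold changes, PM over PH, of the 6 genes. Grey diamonds are the fit without the block and black diamonds the fit with the sample id as a block, each ± SE, and purple markers are the differences within each id pair. The black bars of Fcgr2b and Fcgr3 are short and lie on opposite sides of 0, while the pairs of Fcgr1 run between -0.22 and -1.54.

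Set against each other within a sample, Fcgr3 and Fcgr2b parted the treatments. Such a ratio does not depend on how libraries are scaled. Its size, and the shares given below, rest on the deposited exon lengths, 3810 bases for Fcgr2b and 1347 for Fcgr3. These need not be the lengths of the transcripts in the cells. As CPM, not per length, Fcgr3 and Fcgr2b averaged 120 and 105 with PM, and 101 and 155 with PH. The ratio of Fcgr3 to Fcgr2b, both as RPKM, was 2.99, 3.23 and 3.61 in PM replicates 1, 3 and 4, against 1.78, 1.81 and 1.97 in PH replicates 1, 3 and 4. All PM values were above all PH values, and the means were 3.27 ± 0.310 with PM and 1.85 ± 0.106 with PH (SD, n = 3 each). Within the id pairs the ratio with PM was 1.68, 1.79 and 1.83 times that with PH for ids 1, 3 and 4. Of the summed RPKM of the 4 IgG receptors, Fcgr3 made up 73.8 to 77.1% with PM and 62.6 to 64.9% with PH. Fcgr2b made up 21.4 to 24.7% with PM and 32.9 to 35.2% with PH. The ratios of the other activating receptors to Fcgr2b showed no such separation. For Fcgr4 the ratio was 0.0489, 0.0372 and 0.0647 in PM replicates 1, 3 and 4, against 0.0529, 0.0506 and 0.0515 in PH replicates 1, 3 and 4. For Fcgr1 it was 0.0116, 0.0109 and 0.00891 in PM replicates 1, 3 and 4, against 0.00963, 0.00920 and 0.0166 in PH replicates 1, 3 and 4. No test was run on these ratios, since the genes were taken up with earlier results known.

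**Figure D3:**
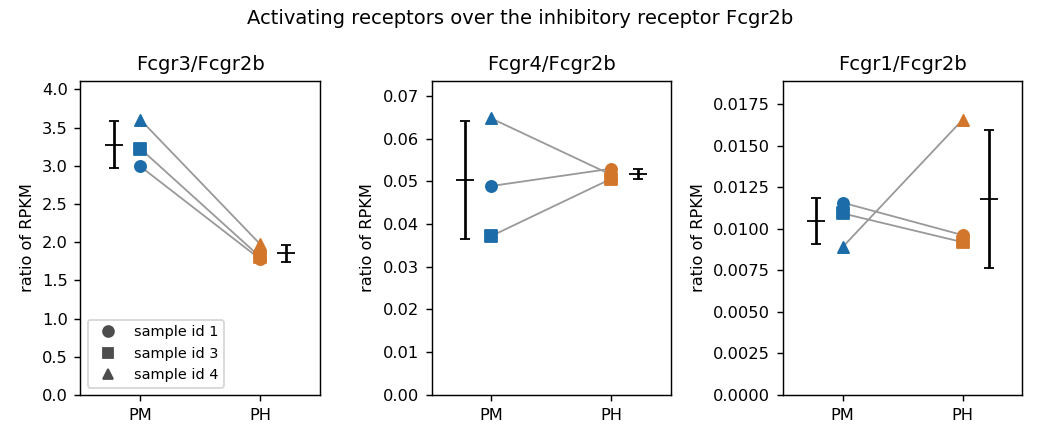
Ratios of RPKM of the activating receptors Fcgr3, Fcgr4 and Fcgr1 to that of the inhibitory receptor Fcgr2b in each sample, with PM left and PH right and axes that start at 0. Marker shapes give the sample id, grey lines join samples of the same id and black bars are means ± SD (n = 3). The Fcgr3 values lie between 2.99 and 3.61 with PM and between 1.78 and 1.97 with PH, while the other ratios overlap.

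Fcgr2b and Fcgr3 are near-copies over the part that binds IgG, and reads from there could match both. The sequence that they share was therefore measured on the GENCODE M21 transcripts of the same build (GRCm38). The span of Fcgr3 there was not the same as in the deposited table, so its transcripts may differ from those counted. The spans of the other members were the same. Their longest coding sequences were 89.7% identical over 691 aligned bases, against 63.4 to 66.5% for the other pairs of IgG receptors. A stretch of 523 bases without a gap was 95% identical. The closest 200 bases are shown to let a reader see how little tells the genes apart there, in lower case with the base that differs in capitals. They lie in exons of the minus strand within chr1:170966603-170968081 for Fcgr2b (coding bases 278 to 477 of Fcgr2b-201) and within chr1:171054096-171057792 for Fcgr3 (coding bases 263 to 462 of Fcgr3-201).
Fcgr2b: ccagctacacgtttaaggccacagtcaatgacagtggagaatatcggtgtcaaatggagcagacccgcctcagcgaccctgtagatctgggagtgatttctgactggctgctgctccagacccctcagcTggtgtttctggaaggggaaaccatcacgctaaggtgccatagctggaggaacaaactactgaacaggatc
Fcgr3: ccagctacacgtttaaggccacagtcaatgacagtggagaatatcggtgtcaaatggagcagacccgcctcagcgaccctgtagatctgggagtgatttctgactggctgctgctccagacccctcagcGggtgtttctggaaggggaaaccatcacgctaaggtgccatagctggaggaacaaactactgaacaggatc

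These windows differ at 1 base, and the longest run shared by the coding sequences was 129 bases. Over whole transcripts few windows were shared letter for letter, and the share of reads that match both genes was not measured. Of 1733 windows of 50 bases in Fcgr3 transcripts, 166 (9.58%) also occurred in Fcgr2b, and of the windows of 100 bases 44 (2.54%) did. Fcgr2b transcripts shared 6.95% of their 50-base windows with transcripts of other genes, Fcgr3 among them. The sources used here do not give how reads that match both genes were counted. Summed, Fcgr2b and Fcgr3 came to 262, 192 and 222 CPM in PM replicates 1, 3 and 4, against 306, 203 and 259 CPM in PH replicates 1, 3 and 4. The sum differed by -0.19 ± 0.15 on the log2 scale (SE), with adjusted p = 0.679 by edgeR, or -0.18 ± 0.05 with the block (adjusted p = 0.00636), smaller in size than that of Fcgr2b alone. The other 4 members shared no 50-base window with another gene.

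Fcgr1 and Fcgr4, activating receptors that are known to be induced by interferons in myeloid cells, were rare and, with the block, lower with PM. Fcgr1 had 21, 20 and 23 counts in PM replicates 1, 3 and 4, against 30, 9 and 69 in PH replicates 1, 3 and 4. As CPM these were 1.00, 0.665 and 0.590 with PM, against 1.23, 0.777 and 1.72 with PH. PH replicate 4 was the highest sample, and the 9 counts of PH replicate 3 have an exact 95% Poisson interval of 0.355 to 1.47 CPM (counting error only). Its log2 fold change was -0.87 ± 0.33 (SE), with adjusted p = 0.292 by edgeR. With the block it was -0.84 ± 0.29, with adjusted p = 0.0489 by edgeR, just under the threshold of 0.05. Within pairs it was -0.30, -0.22 and -1.54 for ids 1, 3 and 4, so most of the difference came from id 4. Without that id the blocked log2 fold change was -0.27 and the adjusted p was 0.788.

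Fcgr4 had 43, 33 and 81 counts in PM replicates 1, 3 and 4, against 80, 24 and 104 in PH replicates 1, 3 and 4. As CPM these were 2.05, 1.10 and 2.08 with PM, against 3.28, 2.07 and 2.59 with PH. PM replicates 1 and 4 were level with PH replicate 3, and PM replicate 3 was the lowest sample. Without the block the difference of Fcgr4 on the log2 scale was -0.63 ± 0.28 (SE), with adjusted p = 0.380 by edgeR, or -0.56 ± 0.20 with the block (adjusted p = 0.0489, lower in 3 of 3 pairs). This call was lost without any 1 of the ids, at adjusted p 0.0565 to 0.183.

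The sequence before the start of these 2 genes and of Fcgr3 is shown because it holds letters that known regulators of Fc gamma receptor genes bind. The 250 bases before each RefSeq start (GRCm38.p6) were searched on both strands for TTCNNNGAA (GAS, an element that responds to interferon-gamma), GAAANNGAA (ISRE, bound by interferon-induced complexes) and GAGGAA (the core bound by the myeloid factor PU.1). All 6 members had such a window. Each sequence runs 5′ to 3′ on the gene's own strand and ends at the last base before the start, and capitals mark the matches. Fcgr1 lies at chr3:96293970-96294219, minus strand, Fcgr4 at chr1:171018676-171018925, plus strand, and Fcgr3 at chr1:171059404-171059653, minus strand.
Fcgr1: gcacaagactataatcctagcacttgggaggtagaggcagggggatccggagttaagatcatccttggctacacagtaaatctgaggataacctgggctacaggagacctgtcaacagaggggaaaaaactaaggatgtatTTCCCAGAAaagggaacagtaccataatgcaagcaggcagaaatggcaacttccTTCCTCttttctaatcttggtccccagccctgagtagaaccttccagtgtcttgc
Fcgr4: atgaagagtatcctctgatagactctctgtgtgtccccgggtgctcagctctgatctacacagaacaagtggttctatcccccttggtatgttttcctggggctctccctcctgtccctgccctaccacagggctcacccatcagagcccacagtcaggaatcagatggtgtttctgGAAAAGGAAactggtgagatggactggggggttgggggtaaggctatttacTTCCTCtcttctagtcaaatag
Fcgr3: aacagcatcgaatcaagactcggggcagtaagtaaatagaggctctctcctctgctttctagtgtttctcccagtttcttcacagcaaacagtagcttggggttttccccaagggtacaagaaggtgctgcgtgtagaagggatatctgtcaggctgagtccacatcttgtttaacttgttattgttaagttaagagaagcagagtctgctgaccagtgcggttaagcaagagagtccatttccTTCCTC

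Fcgr1 held 1 GAS, which starts 109 bases before the start of the gene, and 1 PU.1 core 55 bases before it, on the opposite strand. Fcgr4 held 1 ISRE 73 bases before its start and 1 PU.1 core 22 bases before it. Fcgr3 held only a PU.1 core, 6 bases before the start shown. A further RefSeq start of Fcgr3, with its window at chr1:171059395-171059644, has the same core 15 bases before it. No motif overlapped another. Among all 32851 promoter windows, 7.02% held a GAS, 7.13% an ISRE and 23.3% a PU.1 core. The windows of Fcgr2b, Fcer1g and Fcgrt held none of these letters, which says nothing of other positions or of the factors themselves.

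Fcer1g, through which the activating receptors signal, did not pass the test between the bacteria. It was at 393, 293 and 283 CPM in PM replicates 1, 3 and 4, against 398, 320 and 322 CPM in PH replicates 1, 3 and 4. The samples of id 1 were the highest in both treatments, and the treatments overlapped over most of their range. On the log2 scale PM minus PH was -0.10 ± 0.14 (SE), with adjusted p = 0.815 by edgeR, or -0.11 ± 0.05 with the block (adjusted p = 0.115). It did not pass in either fit, but it did with the block once id 1 was left out (-0.17, adjusted p = 0.00261 by edgeR). Per RPKM there was 5.14, 5.09 and 4.02 times as much Fcer1g as Fcgr1, Fcgr3 and Fcgr4 together in PM replicates 1, 3 and 4, against 5.86, 7.03 and 5.27 times in PH replicates 1, 3 and 4. The values with PM were thus below those with PH in every sample, by a small gap between PM replicate 1 and PH replicate 4.

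The neonatal receptor chain Fcgrt was not lower with PM. It was at 12.9, 11.3 and 12.2 CPM in PM replicates 1, 3 and 4, against 10.1, 9.84 and 11.96 CPM in PH replicates 1, 3 and 4. Each PM sample was above its PH partner, for id 4 by little. For Fcgrt the change on the log2 scale was 0.17 ± 0.11 (SE), with adjusted p = 0.564 by edgeR, or 0.17 ± 0.09 with the block (adjusted p = 0.236), so it did not pass in either fit. Its partner B2m, the light chain that it shares with MHC class I, averaged 2463 ± 147 CPM with PM and 3007 ± 103 with PH (SD, n = 3 each). B2m differed by -0.29 ± 0.08 on the log2 scale (SE), with adjusted p = 0.132 by edgeR, and passed with the block, at adjusted p = 2.9e-05.

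The IgG receptor genes other than Fcgr1 lie next to each other on chromosome 1, and 0 of their tested neighbours passed the test between the bacteria. Fcgr2b (170958617 to 170976547, minus strand, GRCm38), Fcgr4 (171018920 to 171029761, plus strand) and Fcgr3 (171051175 to 171059403, minus strand) are parted by gaps of 42.4 and 21.4 kb. Fcer1g (171229572 to 171234365, minus strand) follows 170 kb after Fcgr3. Fcgr1 is on chromosome 3 (96282909 to 96293969, minus strand) and Fcgrt on chromosome 7 (45092990 to 45103851, minus strand). Exons of Fcgr2b overlapped Gm38204, a gene of the opposite strand with at most 5 counts in a sample, over 4.07% of their length, and exons of the other members overlapped no other gene. Of 17 other tested genes in the chromosome 1 stretch, from 100 kb before Fcgr2b to 100 kb after Fcer1g, 0 passed with or without the block, and the lowest adjusted p with the block was 0.0890. Within 100 kb of any member, chromosomes 3 and 7 included, 0 of 39 tested neighbours that are not members passed in either fit. Of all tested genes, 2.34% passed without the block and 15.3% with it. With the block, Fcgr2b and Fcgr4 were lower and Fcgr3 higher with PM, Fcgr4 just under the threshold (adjusted p = 0.0489 by edgeR). The 17 other tested genes of the stretch and Fcer1g did not pass. Without the block Fcgr2b, Fcgr4 and Fcgr3 did not pass either.

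**Figure D4:**
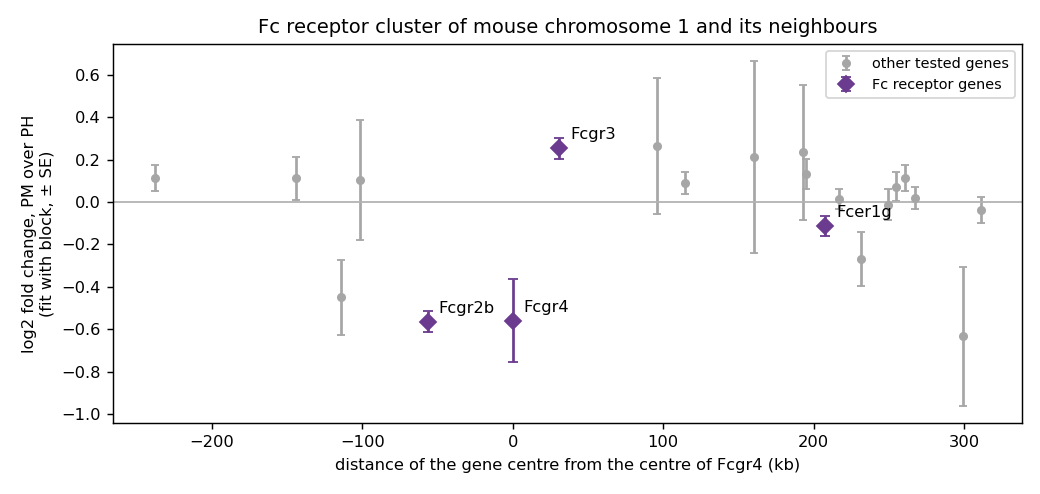
Log2 fold changes, PM over PH, in the fit with the block (± SE) against the distance of each tested gene's centre from the centre of Fcgr4 on mouse chromosome 1, in kb. Purple diamonds are Fc receptor genes and grey points the 17 other tested genes. Fcgr2b and Fcgr4 lie near -0.56 and Fcgr3 at 0.25.

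Genes with the most similar course over the 6 samples were looked up for each member, by the root mean square difference of log2 CPM after centring each gene on its mean. The closest to Fcgr2b were Mlkl, an executor of necroptosis (difference 0.0675), the C-type lectin receptor Clec4a1 (0.0706) and the syndecan Sdc4 (0.0707). Among the 3 closest to Fcgr3 were the myosin Myo7a (0.0196) and Bpifc (0.0451). Closest to Fcer1g were Fgd3 (0.0256), the haem transporter Slc48a1 (0.0267) and Rab20 (0.0284). Those of Fcgrt were Dtnb (0.0234), Rab11fip5 (0.0434) and Elmod3 (0.0456). The rare receptors had less close matches, P4ha2 (0.157), Disc1 (0.168) and Slfn4 (0.180) for Fcgr1 and Gm16675 (0.120), Zfp395 (0.124) and Stfa2 (0.139) for Fcgr4. The median difference to all tested genes was 0.394 for Fcgr2b and 0.283 for Fcgr3, and with so few samples many genes come close.

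Genes that carry Fc gamma receptor signals, such as kinases and adaptors, differed in part. Of 20 tested, 1 passed without the block, lower with PM, and 5 were lower and 2 higher with it. For comparison, 2.34% of all tested genes passed without the block, and 8.27% were lower and 7.00% higher with it. The median log2 fold change was -0.04, beside 0.0095 over all tested genes. Pik3cd, a catalytic subunit of PI3-kinase, averaged 107 ± 6.10 CPM with PM and 135 ± 1.98 with PH (SD, n = 3 each), or -0.34 ± 0.06 on the log2 scale (SE), with adjusted p = 0.0243 by edgeR. The Src family kinase Fgr (-0.32) and the adaptor Lcp2 (-0.35) passed only with the block, lower with PM, and the adaptor Lat2 (0.46) only with the block, higher with PM. Syk, which binds the ITAM of Fcer1g, was at 673 ± 54.2 CPM with PM and 686 ± 66.7 with PH (adjusted p = 0.935, or 0.772 with the block). Of 11 genes that limit the signal, 0 passed without the block and 3 were lower with it, namely the phosphatases Ubash3b (-0.24), Ptpn6 (-0.17) and Ptpn22 (-0.34). Their median was -0.07. Inpp5d, which encodes SHIP-1 and is recruited by Fcgr2b, averaged 110 ± 6.97 CPM with PM and 115 ± 5.38 with PH (adjusted p = 0.738, or 0.403 with the block).

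Receptors that use the same kind of adaptor differed in both directions. Of 13 tested genes, Tyrobp (the other ITAM adaptor) and receptors that signal through it or through Fcer1g, 2 were lower without the block, and 6 were higher and 5 lower with it, with a median of 0.16. The 2 were Trem1, which amplifies inflammation, at 12.6 ± 4.39 CPM with PM and 24.9 ± 3.03 with PH (-1.02 ± 0.21 on the log2 scale, SE, with adjusted p = 0.0433 by edgeR), and its relative Trem3, at 3.27 ± 0.741 CPM with PM and 6.47 ± 0.379 with PH (-0.99 ± 0.18, adjusted p = 0.0237). Trem2, a lipid-binding receptor (0.64), and Cd300lb (0.71) were higher with PM with the block only. Clec4e, the Fcer1g-coupled receptor Mincle, was lower with PM with the block only (-0.44). Of 13 other antibody receptors 9 were tested, and 1 was lower in both fits, the cytosolic antibody receptor Trim21, at 19.5 ± 1.51 CPM with PM and 28.8 ± 0.573 with PH (-0.56 ± 0.08 SE, adjusted p = 0.00806 by edgeR). Their median was -0.0041. For both lists, the share over all tested genes was 2.34% without the block and 15.3% with it. Fcer1a, the IgE receptor chain that also uses Fcer1g, was at 2.91 ± 0.440 CPM with PM and 2.49 ± 0.313 with PH (adjusted p = 0.645, or 0.372 with the block).

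Regulators that act on Fc gamma receptor expression were lower in part. Of 15 tested, 2 were lower without the block, and 6 were lower and 1 higher with it, with a median of -0.11. Of these 2, the interferon-induced factor Irf1 averaged 158 ± 14.9 CPM with PM and 229 ± 21.1 with PH (-0.54 ± 0.09 SE, adjusted p = 0.0190 by edgeR). With the block, the C5a receptor gene C5ar1 (-0.33) and the interleukin-10 receptor chain Il10ra (-0.21) were lower and the factor Cebpb (0.21) was higher. Of 5 subunits of the phagocyte oxidase, which makes superoxide in phagosomes, 0 passed without the block and Cybb (-0.36) and Ncf1 (-0.18) were lower with it, with a median of -0.06. Over these lists and B2m, 6 of 74 tested genes passed without the block, and 9 were higher and 23 lower with it. Among all tested genes the shares were 2.34% without the block, and 7.00% higher and 8.27% lower with it.

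**Figure D5:**
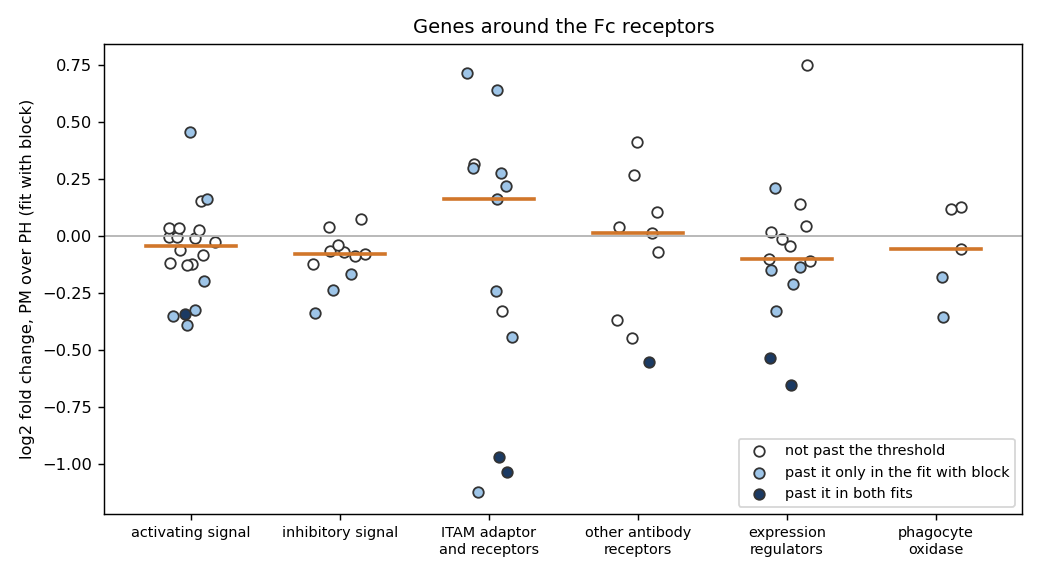
Log2 fold changes, PM over PH, in the fit with the block for tested genes of 6 lists. Each point is a gene, fill gives the fits in which it passed an adjusted p of 0.05, orange lines are list medians, and horizontal placement within a list is random. The genes past the threshold in both fits all lie below 0, from -0.34 for Pik3cd to -1.04 for Trem1.

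Markers of other cell types that the cultures could hold were measured beside these results. Less RNA per cell and fewer cells of a type cannot be told apart in bulk samples. Over all tested genes, 2.34% passed without the block and 15.3% with it. Of 5 monocyte markers, 0 passed without the block and 4 were lower with it, and their summed level was 122 to 183 CPM with PM and 188 to 262 with PH, without overlap. Of 7 tested macrophage markers of 9, 1 was higher with PM without the block and 3 were higher with it. Their summed level was 1221 to 1709 CPM with PM and 1070 to 1534 with PH, and C1qa, C1qb and C1qc were each at most 0.764 CPM with PM and 0.492 with PH. Neutrophil markers summed to 355 to 498 CPM with PM and 463 to 577 with PH, with 0 of 7 tested past the threshold without the block and 3 lower with it. Mast cell and basophil markers summed to 95.7 to 107 CPM with PM and 108 to 121 with PH, with 1 of 8 (Hdc) lower in both fits. NK cell markers summed to 5.97 to 10.6 CPM with PM and 8.78 to 14.5 with PH (1 of 4 tested, Gzma, lower with the block only). B cell markers, of which 0 of 5 passed in either fit, summed to 9.95 to 22.1 CPM with PM and 9.58 to 18.1 with PH. T cell markers, of which 0 of 6 passed in either fit, summed to 14.3 to 25.5 CPM with PM and 16.6 to 25.5 with PH. Of 8 conventional dendritic cell markers 6 were tested, 0 passed without the block and 1 (Clec9a) was higher with it, and they summed to 471 to 502 CPM with PM and 475 to 493 with PH. The part of these cells in the differences of Fcgr1, Fcgr2b, Fcgr3 and Fcgr4 was not tested.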

How the data were processed

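The authors deposited 1 table of raw read counts per gene. Per the submitters' processing notes it was made with Trimmomatic, STAR 2.5.3a and featureCounts 1.6.4 on GRCm38, and per the labels' protocols from polyadenylated RNA in strand-marking libraries. How strand and reads with several matches were handled, and which annotation was used, the sources used here do not give. The table's other column used, the deposited exon length per gene (a score in bases, per the file headers), served only for RPKM. All 6 count columns were used and 0 were left out. 0 rows lacked a gene name.

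The tests used edgeR 4.0.16 in R 4.3.3 after TMM scaling and filterByExpr with a minimum count of 10. The robust quasi-likelihood test compared PM with PH with no covariate, with Benjamini-Hochberg adjustment over 14382 genes and a threshold of 0.05. Standard errors were derived from the F value. CPM and RPKM use TMM-scaled totals. The same-id samples were checked for pairing by the correlation of deviations from the treatment means of log2 CPM (prior count 2) across 14382 genes, which are not independent replicates. It was 0.44, 0.32 and 0.24 for ids 1, 3 and 4, and -0.35 to 0.066 between samples of different ids. Same-id samples were therefore treated as pairs, and the replicate block is given where it changes a call. The pairing rests on the counts, since the labels do not say what an id is. DESeq2 1.42.0, other scalings and filters and left-out samples were alternatives. The members and lists were chosen with earlier results of these data known. Named genes are the members, up to 5 genes of each list by adjusted p, first without and then with the block, the 3 most similar genes of each member, and defining markers by level. Syk, Inpp5d, Fcer1a and the marker genes that passed a test were named for their role, after their values were seen. Protein sequences were not used here. Some genes that the rule names are not reported here.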

Additional observations from a re-analysis of the deposited data

How the results depend on the processing

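Which genes passed depended above all on the replicate block. It raised the genes called from 337 to 2197, the members from 0 to 4 and the pathway genes from 6 to 32, and moved Fcgr1 (-0.84), Fcgr2b (-0.56), Fcgr3 (0.25) and Fcgr4 (-0.56, all log2) past the threshold. With the block and without id 1, 3 or 4, there were 2145, 1580 and 1529 genes, 4, 3 and 2 members and 33, 22 and 24 pathway genes called. Fcgr2b was then -0.58, -0.61 and -0.52 and Fcgr3 0.27, 0.20 and 0.27, all past the threshold, as were Fcgr1 without id 1 (-1.14) or 3 (-1.01) and Fcer1g without id 1 (-0.17). DESeq2 called 580 genes, 12 pathway genes and 1 member (Fcgr2b, -0.57). No low-count filter gave 846 genes and 13 pathway genes. Leaving out the columns that match 2 runs, chosen after the data were seen, gave 629 genes, 14 pathway genes and 1 member (Fcgr2b, -0.87). Without any 1 sample, 142 (PH replicate 4) to 417 (PM replicate 1) genes, 2 to 8 pathway genes and 0 members were called, and Fcer1g ran from -0.28 to 2.3e-04, a change of sign without PH replicate 1. Without 1 id, the log2 ratio difference, PM minus PH, ran from -0.32 to 0.26 (id 4 left out) for Fcgr1 and from -0.28 to 0.11 (id 3 left out) for Fcgr4, both of which changed sign, and from 0.79 to 0.85 for Fcgr3. The cause was not tested. Other scalings and a filter of 1 CPM changed no call of a member (Fcgr1 did not pass that filter). The 9 to 69 counts of Fcgr1 per sample limit its precision.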
